A study of Mus musculus with 14 samples.

Results

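The m6A-RIP signal of transcripts relative to their RNA level was described in control muscle stem cells (MuSCs) of the mouse. It was taken from 2 m6A-RIP and 2 input libraries out of the 14 libraries of the series. Genes were taken by a simple rule: a gene had to have at least 1 row in the m6A-RIP table and a value in the input table. Of 16179 genes in either table, 8063 met it, 6763 had an input value without an m6A-RIP row, and 1353 had an m6A-RIP row without an input value. The study set control MuSCs against Lin28a+ MuSCs and sequenced input RNA, m6A-RIP and RIP with antibodies to Igf2bp3 and Lin28a, with 2 libraries of each kind. The control libraries carry the genotype label Control, the cells came from skeletal muscle and were grown on Matrigel-coated plates, and the labels give neither a deletion nor a drug for them. Input libraries are labelled as made from total RNA and m6A-RIP libraries from polyA RNA, whereas the methods of the study take the input from the poly(A)-enriched RNA. The labels do not say that replicates 1 and 2 came from separate animals or cultures, so p-values measure only the spread between these libraries, which may be technical.

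N6-methyladenosine (m6A) is the most common internal modification of eukaryotic mRNA. A complex of Mettl3, Mettl14, Wtap and partners places it, mostly near stop codons, in 3′ untranslated regions and in long internal exons, and proteins with a YTH domain or of the Igf2bp family bind it and change the decay, splicing or translation of the RNA. In m6A-RIP, RNA is broken into short fragments, those with m6A are pulled down with an antibody, and the fragments are sequenced beside the input, so a transcript rich in m6A takes a larger share of the m6A-RIP reads than of the input reads.

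Markers of muscle precursor cells were present in the input. Myod1, the myogenic determination factor, was at 4542 and 4708 CPM (counts scaled to a common library total) in the control input libraries, and Pax7, the factor that marks satellite cells, at 139 and 154 CPM. Myog, which is switched on at commitment to differentiation, was at 748 and 774 CPM. Of 10 endothelial markers 4 had an input value, with a summed level of 0.853 and 0.601 CPM. Of 10 macrophage markers 7 had one, with sums of 4.67 and 4.05 CPM, and none of either list reached 10 CPM. Acta2 and Tagln, smooth muscle genes that cultured myoblasts also express, were at 5311 and 5396 and at 278 and 293 CPM, while Myh11, which defines smooth muscle, was at 0.0457 and 0.0804 CPM. Notch3 of the same list of pericyte and smooth muscle markers was at 146 and 143 CPM. The fibro-adipogenic progenitor markers, 7 of 10 with an input value, summed to 151 and 161 CPM, of which Gsn, an actin-severing protein gene, made up 140 and 148 CPM, and Pdgfra was at 0.224 and 0.235 CPM. The part of other cells in the results was not tested. The deposited estimated counts of the control input summed to 5466147 and 6220960, and the m6A-RIP counts to 31830638 and 21350962.

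The log2 ratio used below is the fitted log2 of m6A-RIP CPM over input CPM. It is 0 when a gene takes the same share of the m6A-RIP counts as of the input counts. The m6A-RIP counts of a gene are those of its rows, each a called peak, whereas the input counts are given for the whole gene. Reads of m6A-RIP outside the rows are therefore not in the ratio, and a low ratio does not say that a transcript lacks m6A. The question was which transcripts have more or fewer m6A-RIP counts in their rows than their RNA level alone would give. Across the 8063 genes, m6A-RIP and input levels as log2(CPM + 1) had Pearson's r = 0.509 and Spearman's rho = 0.500, whereas the 2 m6A-RIP libraries had r = 0.997 and the 2 input libraries r = 0.998. These are correlations across genes, which are not independent replicates. The ratio varied far more between genes than between replicates: its SD across genes was 2.28 on the log2 scale, and replicates 1 and 2 differed by a median of 0.118.

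Of 8051 genes tested with edgeR's quasi-likelihood test, 4903 (60.9%) had a higher and 2397 (29.8%) a lower share of m6A-RIP than of input counts at a Benjamini-Hochberg adjusted p under 0.05, so 90.7% were called in 1 direction or the other. With TMM factors in place of library totals the split was 3694 higher and 3460 lower, and the median log2 ratio went from 0.74 to 0.07. Log2 ratios below are on the scale of library totals, and counts for lists are also given with TMM factors. A gene was called strongly enriched when the test passed, the m6A-RIP share was at least 4 times the input share and both m6A-RIP libraries lay above both input libraries, which held for 1851 genes (23%). Weak enrichment, the mirror image with an m6A-RIP share at most 1/4 of the input share, held for 727 genes (9.03%). With TMM factors these counts were 1120 and 1218. Of the tested genes, 553 had a mean input count under 10. Both input libraries of 288 genes lay under the limit of the filter on low counts, so that these passed only through the m6A-RIP libraries, and 386 of the 411 tested genes with input under 1 CPM were strongly enriched. The classes and the highest and lowest ratios are therefore described below for genes with at least 10 CPM of input, of which 763 were strongly and 708 weakly enriched, whereas the ranking by m6A-RIP level and the gene lists also hold genes with less input, such as Hic2, Mettl3, Chek1, Hoxc8 and Wnt5b.

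**Figure D1:**
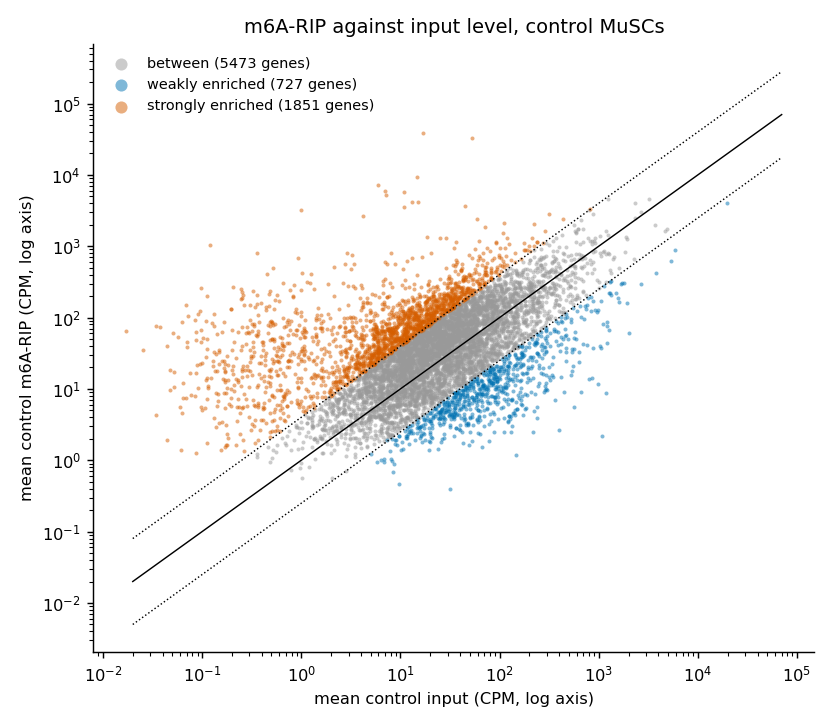
Each point is 1 of the 8051 tested genes, with the mean CPM of the 2 control input libraries on the x axis and of the 2 control m6A-RIP libraries on the y axis, both logarithmic, and with a solid line at equal shares and dotted lines at a 4-fold difference. The 1851 strongly enriched genes lie above the upper line and reach the lowest input levels, and the 727 weakly enriched genes lie below the lower line at a median input of 79.3 CPM.

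The strongly enriched genes with at least 10 CPM had a median m6A-RIP level of 150 CPM, and the weakly enriched ones, whose median input was 82.3 CPM, one of 9.27 CPM. The strong class had a median of 3 m6A-RIP rows a gene and the weak class 1, with a single row in 10.3% of the strong and 81.4% of the weak genes. The m6A-RIP level of a gene is the sum over its rows, so the number of rows is not independent of the class. The median span of the gene on the genome was 26.7 kb in the strong and 28.6 kb in the weak class. An Igf2bp3-RIP peak, which marks RNA bound by this m6A reader and was called separately, was annotated to 61.1% of the strong, 44.0% of the intermediate and 38.3% of the weak genes, and over all tested genes to 44.6%, 40.2% and 37.6%. The list of these peaks covers control and Lin28a+ libraries, and peaks were not filtered by their control counts here or below.

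Among the 10 highest log2 ratios of genes with at least 10 CPM of input were those of Pex2, Gphn, Filip1l, Igf2bp3, Zc3h10, Dapk3, Cdk8, Snapc5 and Arhgap21. Pex2, a peroxisome assembly factor, had 16.7 and 17.1 CPM in the input libraries and 37882 and 38634 CPM in the m6A-RIP libraries. Its log2 ratio was 11.14 ± 0.07 (SE, adjusted p = 3.52e-13, edgeR's quasi-likelihood test). Filip1l had 52.1 and 53.9 CPM of input and 33344 and 31821 CPM of m6A-RIP, with a log2 ratio of 9.26. Gphn, which encodes the synaptic scaffold gephyrin, had 13.8 and 15.7 CPM of input and 9168 and 9535 CPM of m6A-RIP, with a log2 ratio of 9.30. In these 9 genes both m6A-RIP libraries lay above both input libraries, as the rule for naming them required.

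Igf2bp3, the m6A reader whose binding the study measured, was itself on this list. It had 11.3 and 10.7 CPM of input and 5557 and 5961 CPM of m6A-RIP, a log2 ratio of 9.04 ± 0.08. The other values were 8.36 for Zc3h10, 8.33 for the kinase gene Dapk3, 8.11 for Cdk8 of the Mediator kinase module, 6.18 for Snapc5 of the snRNA-activating complex and 5.74 for Arhgap21. The adjusted p of these 9 genes was at most 3.07e-12.

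In 8 of the 9 genes a single row held 96.5% or more of the gene's m6A-RIP counts, and in Arhgap21 it held 73.6%. Without that row, the log2 of the mean m6A-RIP CPM of the remaining rows over the mean input CPM was 2.84 in Pex2, 3.82 in Arhgap21, 2.06 in Filip1l, 0.10 in Dapk3 and -0.07 in Gphn, and Igf2bp3, Zc3h10 and Snapc5 had no other row. The other rows of Cdk8 had 18.6 CPM in m6A-RIP replicate 1 and 273.5 CPM in replicate 2, so their ratio of 3.27 rests on replicate 2. The rows carry a transcript and a gene but no position, so whether a row lies inside its gene could not be read from them. In the Igf2bp3-RIP table, which gives positions, both peaks annotated to Pex2 and the single peak annotated to Snapc5 lay outside the span of the gene, as did 19.4% of all 19459 peaks.

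Of these genes, 3 sit within 10 kb of an abundant gene that has no m6A-RIP row. Dapk3 is next to Eef2 (translation elongation factor 2, 6651 and 6922 CPM of input), Zc3h10 next to Rpl41 (1067 and 1043 CPM of input) and Snapc5 next to Rpl4 (1939 and 1989 CPM of input). Across all tested genes, 21.5% of the strong, 13.3% of the intermediate and 13.2% of the weak genes had such an expressed neighbour without a row, and among genes with at least 10 CPM of input 18.2%, 13.7% and 13.1% did. Its part in the ratios was not tested.

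**Figure D2:**
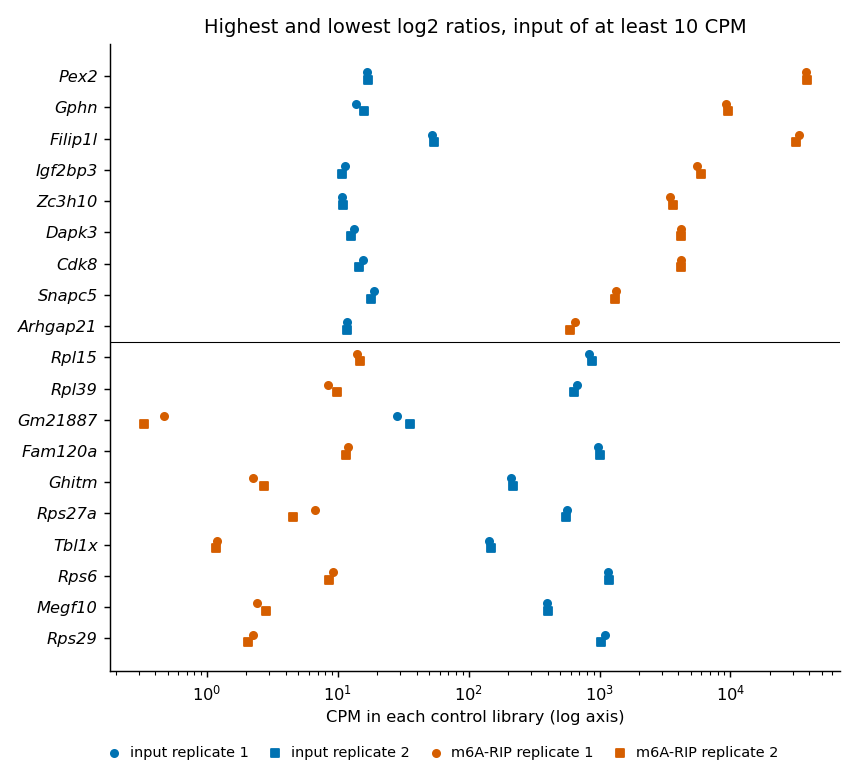
CPM in each of the 4 control libraries on a logarithmic axis for 9 of the 10 genes with the highest (top) and the 10 with the lowest (bottom) log2 ratio among called genes with at least 10 CPM of input (circles, replicate 1, squares, replicate 2, blue, input, orange, m6A-RIP). The replicates of an assay lie close together beside the distance between assays.

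By level alone, the 10 genes with the most m6A-RIP reads among those that also had an input value were Pex2, Filip1l, Gphn, Igf2bp3 and Dapk3 from the list above together with Hic2, Axin2, Plekha1, Hsp90ab1 and Lrrn1. Hic2 had 6.04 and 5.87 CPM of input against 7765 and 6725 CPM of m6A-RIP in 1 row, and Axin2, a feedback inhibitor of Wnt signalling, 6.38 and 7.67 CPM against 6355 and 5595 CPM. Hsp90ab1, the constitutive cytosolic Hsp90 chaperone, was high in both assays, with 1208 and 1256 CPM of input and 4454 and 4600 CPM of m6A-RIP, a log2 ratio of 1.88. Lrrn1 had 3139 and 3274 CPM of input and 4467 and 4582 CPM of m6A-RIP, a log2 ratio of 0.50 that fell to -0.17 with TMM factors. In the whole m6A-RIP table, 50 rows of 18881 had at least 1000 CPM in both control libraries, and together they held 26.2% and 25.7% of the counts.

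Strong enrichment spread over several rows was found in 63 genes with at least 50 CPM of input and no row holding more than 50% of the counts. These genes lie outside the rule for named genes and were picked with their values in view. Among the 10 highest were Tnnt3, Tnnt2, Plec, Nans, Cald1, Map4k4, Serbp1, Son and Nisch. Tnnt2, the cardiac-type troponin T that immature muscle also makes, had 71.3 and 71.5 CPM of input and 1879 and 1872 CPM of m6A-RIP in 12 rows, a log2 ratio of 4.71. Tnnt3, the fast skeletal troponin T, had 57.7 and 59.5 CPM of input and 1796 and 3041 CPM of m6A-RIP. Its 2 m6A-RIP libraries differed more than those of the other genes named here, and its log2 ratio was 5.36 ± 0.26. Plec, which encodes the cytolinker plectin, had 109 and 112 CPM of input and 2107 and 2068 CPM of m6A-RIP, a log2 ratio of 4.24. Son, a nuclear speckle protein gene, had a log2 ratio of 3.44 over 6 rows, and Map4k4, a kinase gene, 3.65 over 11 rows. In Lin28a+ MuSCs the log2 ratios of these 9 genes ran from 3.06 to 5.40.

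At the other end, 5 of the 10 lowest log2 ratios were those of ribosomal proteins. Rps29 had 1109 and 1034 CPM of input and 2.26 and 2.06 CPM of m6A-RIP, a log2 ratio of -8.94 ± 0.07 (adjusted p = 4.08e-13, edgeR's quasi-likelihood test). Rps6 had 1164 and 1179 CPM of input against 9.14 and 8.62 CPM, a log2 ratio of -7.04. Rps27a, which makes a ubiquitin fusion protein, stood at -6.59, Rpl39 at -6.19 and Rpl15 at -5.89. Every input library lay above every m6A-RIP library in these genes, as the rule for naming them required.

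Megf10, which encodes a receptor of satellite cells with a role in their proliferation, had 398 and 400 CPM of input and 2.42 and 2.81 CPM of m6A-RIP, a log2 ratio of -7.27. The others were Tbl1x, a subunit of the NCoR corepressor complex, at -6.93, the mitochondrial inner membrane protein gene Ghitm at -6.45 and Fam120a, an RNA-binding scaffold gene, at -6.39, with 971 and 1005 CPM of input. Gm21887, annotated as a transcribed pseudogene, was at -6.25 on 0.471 and 0.328 CPM of m6A-RIP. It had 3 rows, and the other 9 genes had 1 row each.

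The input values set a limit on all these ratios. In 45.4% of input genes the 4 values were multiples of 1/k for a whole number k of 1 to 20, within 0.01, as an average over k transcripts would give, and how the values were made is not given in the sources used here. Among genes with at least 10 CPM of input the median log2 ratio rose with k, from -0.55 in the 369 genes with k = 1 to 0.44 in the 369 with k = 5 and 1.21 in the 73 with k = 10. The median k was 7.5 in the 334 strongly and 3 in the 319 weakly enriched genes where it could be read. Of the 8051 tested genes, 3921 had a k. Comparisons below with genes of the same k put all genes without a readable k into a group of their own. They match k only for members that have one. With the input multiplied by k in the 3925 genes that have one, and both assays scaled to the totals of these genes, 344 were strongly enriched, against 455 with the deposited values scaled in the same way. Signs given below for input multiplied by k come from the first of these fits, in which the scaling differs too. The ratio also rose with the number of m6A-RIP rows of a gene, from a median of -0.84 in 2212 genes with 1 row to 0.99 in 966 with 3 rows and 2.25 in 53 with 8 or more. Each row adds to the numerator of the ratio, so the 2 are not independent. Of the strongly enriched genes with several rows given above, Son had k = 14 and Map4k4 and Cald1 k = 18 each.

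**Figure D3:**
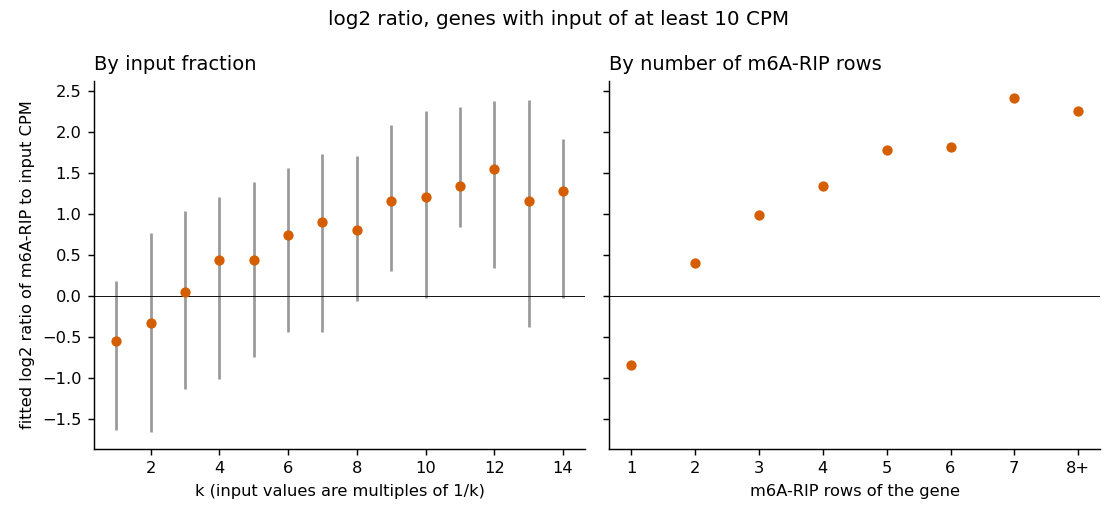
Median log2 ratio of genes with at least 10 CPM of input, by the number k whose fractions make up the input values (left, with the interquartile range as bars, k with at least 20 genes) and by the number of m6A-RIP rows of the gene (right). The medians are lowest at k = 1 (-0.55) and highest at k = 12 (1.55), and lowest at 1 row (-0.84) and highest at 7 rows (2.42).

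Among 7552 genes with at least 10 CPM of control input and an Entrez gene, 1804 (23.9%) had no m6A-RIP row at all. All 6763 input genes without a row, those under 10 CPM included, took 44.2% and 42.6% of the control input counts. The share without a row fell as the input rose, from 29.3% of genes at 10.0 to 16.3 CPM to 19.1% of genes above 92.2 CPM. All 75 expressed genes of the biotype pseudogene, which does not include transcribed pseudogenes such as Gm21887, lacked a row, whereas 1718 of 7457 protein-coding genes (23.0%) did. Whether the annotation used for the rows holds genes of the biotype pseudogene was not tested. A missing row says that the table assigns no peak to the gene. It does not say that its m6A is 0, and whether a peak of the gene was assigned to a neighbour could not be read from rows without positions. The study names MACS2 for its m6A peaks, but the threshold for calling a peak is not given in the sources used here.

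Of the 10 most abundant genes without a row, 8 were mitochondrial mRNAs. All 13 mRNAs of the mitochondrial genome lacked a row, and together they took 170082 and 172094 CPM of the input. The 10 were mt-Co1 (64235 and 65735 CPM), mt-Co3, mt-Atp6, mt-Cytb, mt-Nd1, mt-Nd5, mt-Co2, mt-Nd4, the pseudogene Gm19220 and Lgals1. Gm19220 stood at 43113 and 22581 CPM, the widest gap between replicates among the 10. Lgals1, which encodes galectin-1, a lectin abundant in myoblasts, had 7178 and 7225 CPM. Further down came Eef2, the ribosomal stalk protein gene Rplp1 (6871 and 6644 CPM) and the tubulin gene Tuba1a (5026 and 5125 CPM).

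Some abundant genes without a row lie beside or around a gene that has one. An m6A-RIP gene overlapped or lay within 10 kb of 61.7% of the expressed genes without a row and of 51.4% of those with a row, and overlapped 19.5% and 12.1% of them. Eef2 was described above beside Dapk3. Rpl32 (1538 and 1472 CPM of input) had a neighbour in Snora7a, a small nucleolar RNA with 896 and 919 CPM of m6A-RIP, and Pcbp1 (1379 and 1443 CPM) in the lncRNA 1600020E01Rik with 1315 and 1295 CPM. Both pairs were picked with their values in view. Of the 3484 expressed genes with no m6A-RIP gene within 10 kb, 691 (19.8%) had no row.

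An Igf2bp3-RIP peak was annotated to 22.8% of the expressed genes without an m6A-RIP row, against 45.6% of those with one. Among the genes without a row, Fxr1, a reader-related RNA-binding protein gene with 66.1 and 67.8 CPM of input, had 5 Igf2bp3-RIP peaks and Vcp, an AAA ATPase gene with 488 and 496 CPM, also 5. Lgals1, Eef2 and Rplp1 had none.

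**Figure D4:**
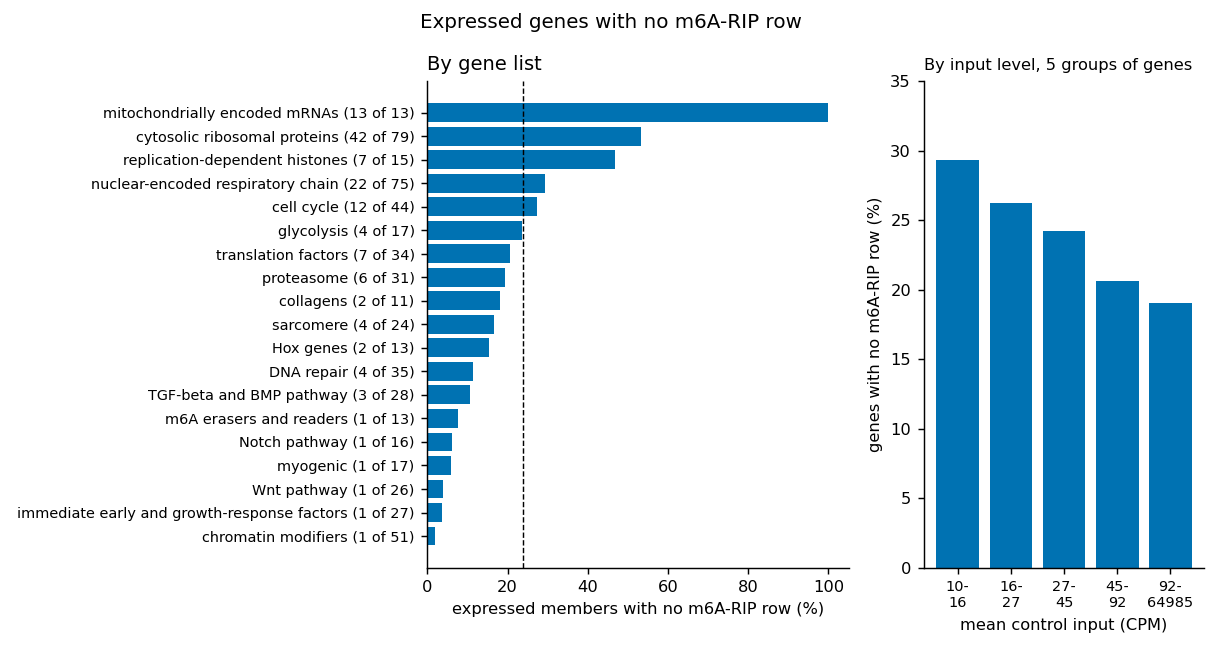
Percent of expressed genes (at least 10 CPM of control input) with no m6A-RIP row, by gene list (left, lists with at least 10 expressed members, counts in parentheses, dashed line at 23.9% for all expressed genes) and in 5 groups of genes by input level (right). All 13 mitochondrial mRNAs, 42 of 79 ribosomal protein genes and 1 of 51 chromatin modifier genes lacked a row, and by level the share goes from 29.3% to 19.1%.

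Gene lists were compared by the median log2 ratio of their tested members against 0.74 over all tested genes, and by their counts against the 60.9% higher and 29.8% lower of all genes. The log2 ratio fell with input. In 5 groups of expressed genes the median went from 1.02 at 10.0 to 16.3 CPM to -0.62 above 92.2 CPM. In 10 equal groups of the tested genes by input it went from 3.91 in the lowest to -0.76 in the highest (138.4 CPM upward). The lowest of these 10 groups holds the 288 genes that passed the filter only through the m6A-RIP libraries. Each list's median is therefore also given relative to genes of the same input level, as the median of each member's log2 ratio minus the median of its group, a comparison added after seeing the data. Of the 19 lists with at least 5 tested members, 7 had a median above that of all genes and 11 a median above that of genes of the same level. The lowest was that of the replication-dependent histones, whose mRNAs mostly end in a stem-loop without a poly(A) tail. Its median was -1.85, with 13 of 15 members lower and 2 higher (14 and 1 with TMM factors), and -2.96 relative to genes of the same level. Hist1h3b had 8.61 and 8.11 CPM of input and 0.534 and 0.843 CPM of m6A-RIP, a log2 ratio of -3.63, and Hist2h3c2 stood at -3.38. Hist1h4m was higher at 2.09, and Hist1h1c was higher at 0.35, which turned to -0.31 with TMM factors. Of 15 expressed histone genes 7 had no row, among them Hist1h1d and Hist2h2aa1. Histone genes are near-identical copies of each other, so the split of reads among them is uncertain.

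Cytosolic ribosomal protein genes had a median of -0.89, and 28 of the 37 tested were lower, 8 higher and 1 not called, or 32 lower and 5 higher with TMM factors. Relative to genes of the same level their median was -0.13, and relative to all genes it was -1.62. The median input of the 79 listed genes was 560 CPM. It lies in the highest level group, which runs from 138.4 to 19826 CPM, so the level is matched only coarsely there. A further 42 of the 79 expressed (53.2%) had no row, against 23.9% of all expressed genes. Rplp1 and Rps3a1 (4207 and 4230 CPM of input) were the most abundant of these. Rpl5, one of the 8 on the high side, had 65.7 and 60.1 CPM of input and 294 and 310 CPM of m6A-RIP, a log2 ratio of 2.26. Processed pseudogenes of ribosomal proteins share reads with their parents, and their part in these levels was not tested.

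Relative to genes of the same level, the median was -0.33 for respiratory chain subunits, -0.47 for the proteasome and -0.55 for glycolysis, against -1.46, -1.51 and -1.44 relative to all genes. For nuclear-encoded subunits of the respiratory chain the median was -0.72, with 33 of 53 lower and 17 higher (43 and 6 with TMM factors). Cox6c, a subunit of complex IV, had 149 and 151 CPM of input and 5.25 and 5.29 CPM of m6A-RIP, a log2 ratio of -4.83, and Sdha of complex II stood at -3.41. Uqcrh was higher at 2.51 and Ndufv3 at 2.65, and Sdhd and Ndufb11 were the most abundant of the 22 expressed members without a row.

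Proteasome subunits had a median of -0.78, with 15 of 25 lower and 8 higher (17 and 6 with TMM factors). Psma5 stood at -4.87 and Psmd11 at -3.69, against 1.78 for Psma4 and 1.90 for Psmd4, the last of which was at -0.14 once the input was multiplied by k. Psmb5 and Psma2 were the most abundant of the 6 without a row.

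In glycolysis the median was -0.70, with 8 of 13 lower and 2 higher (11 and 2 with TMM factors). Pgk1 had 1176 and 1228 CPM of input and 85.6 and 87.4 CPM of m6A-RIP, a log2 ratio of -3.80, and Pgam1 stood at -4.29. The 2 on the high side were the glucose transporter gene Slc2a1 at 1.78 and Gpi1 at 0.76, and Ldha, which encodes lactate dehydrogenase A, and Pfkm had no row. Gpi1 was at 0.04 with DESeq2 size factors (adjusted p = 0.339, edgeR's quasi-likelihood test).

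Translation factors were divided, with 14 of 27 higher and 11 lower and a median of 0.26 (8 higher and 18 lower with TMM factors). Relative to all genes the median was -0.48, relative to genes of the same level 0.53 and relative to genes with the same k -0.70, so the side of the list depended on the comparison. Relative to all genes of the same fit, the median was -1.74 with the input multiplied by k and 0.27 with only the genes that have a k, both over 5 members. Eef1d had 46.7 and 49.4 CPM of input and 329 and 333 CPM of m6A-RIP, a log2 ratio of 2.78, and the initiation factor gene Eif1a stood at 2.48. Eif3e was at -5.10 and Eif2s3x at -5.08, and Eef2 and Eef1b2 led the 7 without a row.

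Cell cycle genes had a median of -0.54, with 22 of 34 lower and 11 higher (25 and 5 with TMM factors), and -0.98 relative to genes of the same level. The transcription factor gene E2f1 had 54.8 and 62.9 CPM of input and 3.27 and 4.31 CPM of m6A-RIP, a log2 ratio of -3.99, and Mcm4 of the replicative helicase stood at -3.48. Rbl2, a member of the retinoblastoma family, was higher at 2.08, and Aurkb at 1.54, which turned to -0.49 when its input was multiplied by k. Ccnb2 and Mcm6 were the most abundant of the 12 expressed members without a row.

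**Figure D5:**
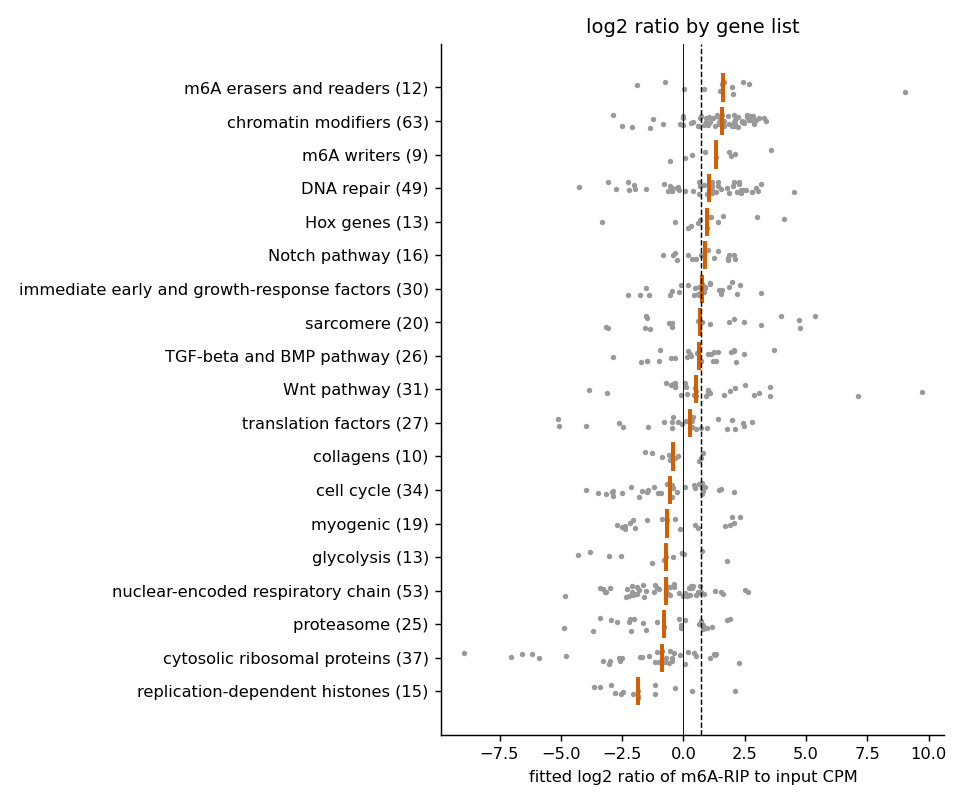
Fitted log2 ratio of m6A-RIP to input CPM of each tested member (grey points, spread vertically only for legibility) for the 19 lists with at least 5 tested members, with the number tested in parentheses, orange bars at the list medians, a dashed line at the median of all tested genes (0.74) and a solid line at 0. Medians run from -1.85 for histones to 1.62 for m6A erasers and readers.

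Genes that act on chromatin lay on the other side. Of 63 tested chromatin modifiers, 53 were higher and 6 lower, with a median of 1.59, and only 1 of 51 expressed members, Kat2a, had no row. With TMM factors 44 were higher and 12 lower, and relative to genes of the same level the median was 0.95. Hdac7, a class IIa histone deacetylase, had 6.29 and 6.91 CPM of input and 66.5 and 62.6 CPM of m6A-RIP, a log2 ratio of 3.29. Its k is 13, and relative to genes with the same k it was at 1.44. The lowest were Hdac3 at -2.88 and the methylcytosine dioxygenase gene Tet3 at -2.52. Relative to genes with the same k, the list's median was 0.70 above. Its 22 members with a k had a median of 0.46 relative to that of all such genes with the deposited input and of -0.069 when the input was multiplied by k.

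DNA repair genes had a median of 1.06, with 32 of 49 higher and 14 lower (25 and 18 with TMM factors) and a median of 0.20 relative to genes of the same level, and the 14 members with a k had a median of -0.32 relative to that of all such genes with the deposited input and of -0.41 when the input was multiplied by k. Ercc1, a nuclease subunit of nucleotide excision repair, had 5.95 and 7.59 CPM of input and 154 and 157 CPM of m6A-RIP, a log2 ratio of 4.50, and the checkpoint kinase gene Chek1 stood at 3.17. Vcpip1 was at -4.26 and Mre11a at -3.06, and Xrcc5, which encodes Ku80, and Nbn were the most abundant of the 4 expressed members without a row. The study followed Usp1 and Fancm. Usp1, a deubiquitinase of the Fanconi anaemia pathway, had 37.3 and 38.9 CPM of input and 107 and 98.1 CPM of m6A-RIP in 3 rows, a log2 ratio of 1.43 ± 0.07 (adjusted p = 1.78e-08, edgeR's quasi-likelihood test). Fancm, a DNA translocase of the same pathway, had 4.33 and 4.63 CPM of input and 10.4 and 10.2 CPM of m6A-RIP. Its log2 ratio was 1.18 ± 0.15 (adjusted p = 4.01e-05, edgeR's quasi-likelihood test), was 0.46 with DESeq2's Wald test (adjusted p = 0.197), was 0.28 in the fit on genes with k alone (adjusted p = 0.183, edgeR's quasi-likelihood test) and turned to -1.002 when its input, with k = 9, was multiplied by k.

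Most tested genes of the m6A pathway itself had a higher share of m6A-RIP than of input counts. Of the 9 tested writer genes, 8 of the complex and Mettl16, 7 were higher and 1 lower, and their median was 1.33 (6 and 3 with TMM factors), or 1.08 relative to genes of the same level. Mettl3, the catalytic subunit, had 3.97 and 4.17 CPM of input and 47.0 and 52.3 CPM of m6A-RIP in 1 row, a log2 ratio of 3.59. Its partner Mettl14 was on the opposite side, with 12.5 and 14.0 CPM of input against 9.33 and 8.52 CPM, a log2 ratio of -0.56 (adjusted p = 0.00218, edgeR's quasi-likelihood test) that was -0.47 without input replicate 2 (adjusted p = 0.0816). The adaptors Cbll1, Zc3h13, Wtap, Rbm15b and Rbm15 stood at 2.09, 1.93, 1.86, 1.33 and 0.89. Rbm15 was not called with DESeq2's Wald test (0.17, adjusted p = 0.134) or in the edgeR fit on genes with k alone (-0.015, adjusted p = 0.868). Virma was at 0.33 and turned to -0.33 with TMM factors, and Mettl16, a methyltransferase that acts alone, was at 0.08 (adjusted p = 0.566, edgeR's quasi-likelihood test), but was lower at -0.58 with TMM factors (adjusted p = 0.0019) and lower with the 3 other scalings tried.

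Of the 12 tested erasers and readers 9 were higher and 2 lower, with a median of 1.62 (8 and 3 with TMM factors), or 1.48 relative to genes of the same level. The demethylases did not stand high: Alkbh5 had 168 and 170 CPM of input and 104 and 97.8 CPM of m6A-RIP, a log2 ratio of -0.75, and Fto was at 0.01 (adjusted p = 0.897, edgeR's quasi-likelihood test), but was lower at -0.66 with TMM factors (adjusted p = 1.4e-05) and lower with the 3 other scalings tried. All 4 tested members of the YTH family were higher, with Ythdc1 at 2.44 over 7 rows, Ythdf2 at 2.00, Ythdf3 at 1.59 and Ythdf1 at 1.49, and Ythdc2 had no row at 7.41 and 8.16 CPM of input. Igf2bp2 stood at 1.65, Prrc2a at 2.01 over 8 rows, Fmr1 at 0.83 (0.16 with TMM factors, adjusted p = 0.216, edgeR's quasi-likelihood test), Hnrnpc at -1.91 and Hnrnpa2b1 at 2.66, which turned to -0.07 when its input, with k = 13, was multiplied by k. Igf2bp1 had no row at 0.366 and 0.386 CPM of input.

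For immediate early and growth-response factors the median was 0.74, that of all genes, with 22 of 30 higher and 8 lower (12 and 10 with TMM factors). It was 0.50 relative to genes of the same level and 0.45 relative to genes with the same k, and with the input multiplied by k it lay 0.96 above that of all genes. Myc had 11.4 and 9.90 CPM of input and 92.6 and 96.0 CPM of m6A-RIP in 4 rows, a log2 ratio of 3.15, and the phosphatase gene Dusp1 stood at 2.31. Klf9 was at -2.27 and Klf13 at -1.78, and Cebpb was the single one of 27 expressed members without a row, at 215 and 244 CPM.

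Hox genes had a median of 0.98, with 10 of 13 higher and 2 lower (7 and 4 with TMM factors), and one of -0.038 relative to genes of the same level. Relative to genes with the same k it was 0.69. The 9 members with a k had a median of 0.30 relative to that of all such genes with the deposited input and of 1.42 when the input was multiplied by k. Hoxc8 stood at 4.11, followed by Hoxc5, while Hoxc10 had 168 and 167 CPM of input and 18.3 and 14.6 CPM of m6A-RIP, a log2 ratio of -3.33. Hoxc11 was at -0.33 as deposited and at 0.64 in the fit with input multiplied by k, although its own k is 1. Hoxa11 was 1 of 2 expressed members with no row.

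In the Notch pathway the median was 0.88, with 11 of 16 higher and 4 lower (8 and 6 with TMM factors), and it was 0.39 relative to genes of the same level. The ligand genes Dll1, with 23.4 and 24.3 CPM of input and 107 and 98.8 CPM of m6A-RIP, and Jag2 stood at 2.11 and 2.07, the latter turning to -0.29 when its input was multiplied by k. Rbpj, the DNA-binding effector, was at -0.81 and the coactivator gene Maml1 at -0.42. The receptor gene Notch2, with 214 and 213 CPM of input, had no row.

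Wnt pathway genes had a median of 0.52, with 19 of 31 higher and 8 lower (15 and 14 with TMM factors). Axin2, described above, was the highest at 9.72, with 99.5% of its counts in 1 row, and Wnt5b stood at 7.11 on 0.778 and 0.965 CPM of input. Znrf3, which removes Wnt receptors, was at -3.84 and Dvl3 at -3.11, and Tcf7 had no row. In the TGF-beta and BMP pathway the median was 0.64, with 18 of 26 higher and 8 lower (11 and 12 with TMM factors). The repressor genes Tgif1 and Smad7 stood at 3.70 and 2.48, and the receptor gene Bmpr1a, with 96.3 and 94.1 CPM of input and 13.2 and 12.9 CPM of m6A-RIP, at -2.86 and the ligase gene Smurf2 at -1.74. Acvr1b and Tgfbr1, both type I receptors, had no row. Relative to all genes the medians of these 2 lists were -0.22 and -0.10, relative to genes of the same level 0.37 and 0.17, and relative to genes with the same k 0.091 and 0.25.

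Myogenic genes, which define the cells, had a median of -0.65, with 11 of 19 lower and 7 higher (13 and 5 with TMM factors), and one of -0.47 relative to genes of the same level. Chrna1, the muscle acetylcholine receptor subunit, had 5793 and 5985 CPM of input and 875 and 912 CPM of m6A-RIP in 4 rows, a log2 ratio of -2.72, and Des, which encodes desmin, stood at -2.49. Pax7 and the 3 tested muscle regulatory factors were lower: Pax7 had 30.2 and 25.7 CPM of m6A-RIP and a log2 ratio of -2.38, Myog 149 and 147 CPM and -2.36, Myf5 98.5 and 100 CPM and -2.19, and Myod1 1654 and 1667 CPM and -1.48. Myod1 was thus low in ratio while its m6A-RIP level was far above the median of 35.4 CPM over all tested genes. Tcf12, the E protein partner of these factors, was higher at 2.31 and Mef2c at 2.05. Myf6 had no row at 12.8 and 7.39 CPM of input, and lies within 10 kb of Myf5.

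Sarcomere genes were divided, with 11 of 20 higher and 9 lower and a median of 0.68 (9 and 9 with TMM factors). Relative to genes of the same level the median was 0.71, relative to all genes -0.054 and relative to genes with the same k -0.22. The 5 members with a k had a median of 0.10 relative to that of all such genes with the deposited input and of -0.69 when the input was multiplied by k. The side of the list thus depended on the comparison. Acta1, the skeletal alpha-actin gene, had 3727 and 3820 CPM of input and 430 and 407 CPM of m6A-RIP, a log2 ratio of -3.17, and Actn3 stood at -3.09. On the other side were Tnnt3 at 5.36 and Myom1, an M-band protein gene with 10.6 and 10.3 CPM of input and 284 and 281 CPM of m6A-RIP, at 4.76. Myh3, the embryonic myosin heavy chain gene with 435 and 430 CPM of input, and Myl1 had no row.

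For collagens the median was -0.44, with 7 of 10 lower and 3 higher (7 and 1 with TMM factors), and it was 0.20 relative to genes of the same level. Col18a1 had 429 and 457 CPM of input and 766 and 790 CPM of m6A-RIP in 7 rows, a log2 ratio of 0.81 (0.089 with DESeq2's Wald test, adjusted p = 0.155), and Col1a2 stood at 0.74 (0.07 with TMM factors, adjusted p = 0.347, edgeR's quasi-likelihood test). Col12a1 was at -1.56 and Col6a1 at -1.27, and Col5a3 and Col8a1 had no row. Of the lists for other cells, 2 fibro-adipogenic progenitor markers were tested, of which Gsn was lower at -3.68, and 4 pericyte or smooth muscle markers, of which 3 were lower. The remaining one, Cnn1, was called higher on 0.146 and 0.450 CPM of input against 17.7 and 3.47 CPM of m6A-RIP, and could pass the filter on low counts only through the m6A-RIP libraries.

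The same measure in Lin28a+ MuSCs, from 2 input and 2 m6A-RIP libraries, called 4619 of 8046 genes higher (57.4%) and 2568 lower (31.9%), with a median log2 ratio of 0.60. The 2 input columns assigned to these cells carry the names of m6A-RIP libraries, so they were placed by their table. Across 8034 genes the log2 ratios of the 2 kinds of cells had Pearson's r = 0.966 and Spearman's rho = 0.977, a description across genes. Of the 1851 genes strongly enriched in control cells, 1595 (86.2%) were so in Lin28a+ cells, which is 93.5% of the 1706 found there. Of the 727 weakly enriched, 686 (94.4%) were so in Lin28a+ cells, 83.4% of the 823 found there.

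Strong in the cells of 1 kind and weak in the other were 3 genes: Pold2 and Ube2t, strong in control cells, and Gm21887. The last had 28.2 and 35.7 CPM of input against 0.471 and 0.328 CPM of m6A-RIP in control cells. In Lin28a+ cells its input was lower, at 2.93 and 3.21 CPM, and its m6A-RIP was 76.4 and 87.8 CPM. Igf2bp3 had more input and more m6A-RIP in Lin28a+ than in control cells: its input was 35.8 and 34.3 CPM and its m6A-RIP 6540 and 7008 CPM in Lin28a+ cells, a log2 ratio of 7.59 against 9.04 in control cells. Whether the ratio of a gene differed between the cells was not tested.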

How the data were processed

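Control MuSCs gave 2 input and 2 m6A-RIP libraries. The authors deposited m6A-RIP counts, whole numbers per peak with a transcript and an Entrez gene but no position, and estimated counts of the input per Ensembl gene, which need not be whole. The submitters' processing notes name FastQC, HISAT2 2.0.4, MACS2 1.4.3, DESeq2 1.42.0 and the builds GRCh38 and mm10. The counting program, the peak threshold and how the input values came to be fractions are not given in the sources used here. Columns of the authors' own comparisons were not used.

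m6A-RIP rows were summed per gene, and 97.7% of 14837 input identifiers were matched to an Entrez gene. Estimated counts were rounded and tested with the m6A-RIP counts in edgeR 4.0.16 (R 4.3.3; quasi-likelihood test, filterByExpr, library totals of the whole tables, no TMM factors, Benjamini-Hochberg adjusted p under 0.05). Totals were 5466147 and 6220960 for input and 31830638 and 21350962 for m6A-RIP. On simulated data for this comparison, with 7797 genes, 100% of 89 genes changed 2-fold and 100% of 111 genes changed 4-fold were called, and 0.25% of unchanged genes. The changed genes were drawn from those with more input. All other genes had equal shares, and all genes had the same dispersion. In the data 90.7% of genes were called, so these rates need not hold there. Levels were compared as log2(CPM + 1). The genes, lists and members described were chosen with earlier results of these data known. Named genes were the 10 highest and 10 lowest log2 ratios at an input of at least 10 CPM among called genes with replicates that did not overlap, the 10 most abundant genes without a row, the 10 highest m6A-RIP levels, the 2 highest, 2 lowest and 2 most abundant members without a row of each list with at least 5 tested genes, the m6A machinery, and Usp1, Fancm and Igf2bp3. Some genes that met these rules are not reported here. Alternatives were TMM and DESeq2 size factors, totals over shared genes, DESeq2 1.42.0, other filters and thresholds, a replicate block, and leaving out each library. Same-numbered libraries were not labelled as paired.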

Additional observations from a re-analysis of the deposited data

Results flagged for a closer look

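Gm21887 had a log2 ratio of -6.25 in control and 4.71 in Lin28a+ MuSCs, with both replicates on opposite sides of 0 in the 2 kinds of cells. Hist1h1c was at 0.35 in control and -0.060 in Lin28a+ cells, again with the libraries on opposite sides, although the Lin28a+ value was not called (adjusted p = 0.129, edgeR's quasi-likelihood test), and with TMM factors its control value was -0.31. The difference between the cells was not tested for either gene.

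Genes with an m6A-RIP row and no input value, 1353 in number, held 16.2% and 16.1% of the control m6A-RIP counts. H19, an imprinted lncRNA, alone had 62449 and 61174 CPM of m6A-RIP in the 2 control libraries. No ratio can be given for these genes.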

How the results depend on the processing

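With other scalings the counts of strongly and weakly enriched genes were 1120 and 1218 (TMM factors), 1085 and 1263 (DESeq2 size factors), 1203 and 1136 (totals over shared genes) and 1085 and 1265 (DESeq2's Wald test), with median log2 ratios of 0.073, 0.018, 0.17 and 0.018. In the same order Lrrn1 was at -0.17, -0.22, -0.071 and -0.22, Hist1h1c at -0.31, -0.37, -0.22 and -0.37, and Virma at -0.33, -0.39, -0.23 and -0.39. A 2-fold limit gave 3553 and 1509 genes, and a limit relative to the median gene 1071 and 1276. With at least 10 counts in every library the median was 0.59 and sarcomere genes lay 0.10 above it. The 475 genes with whole input values gave 161 higher, 249 lower, 59 strong and 74 weak genes, a median of -0.30, 3 of 6 lists above it and TGF-beta genes 0.43 above it. Added after seeing the data, input multiplied by k gave 1357 higher and 344 strong genes, a median of -0.44, chromatin modifiers at -0.069, DNA repair at -0.41, Wnt at 0.69 and TGF-beta at 0.76 relative to it, and Hnrnpa2b1 at -0.072, Psmd4 at -0.14, Hoxc11 at 0.64, Jag2 at -0.29, Aurkb at -0.49, Virma at -0.29 and Fancm at -1.002. Genes with k alone gave 1512 higher and 455 strong genes, a median of -0.23, translation factors at 0.27, TGF-beta at 0.053, sarcomere at 0.10 and DNA repair at -0.32 relative to it, Virma at -0.57 and Rbm15 at -0.015. Relative to genes of the same input level, 11 of 19 lists lay above the median, with translation factors at 0.53, Hox genes at -0.038, Wnt at 0.37, TGF-beta at 0.17, collagens at 0.20 and sarcomere at 0.71. Relative to genes with the same k, with those without a readable k as a group of their own, Wnt stood at 0.091 and TGF-beta at 0.25. Translation factors were at -1.74 with input multiplied by k and at -0.70 relative to genes with the same k. Smaller sets of genes were tested with whole values and in both fits with k, and the cause of the other shifts was not tested. The correlation of levels was 0.487 with a pseudocount of 0.1 CPM, 0.531 with at least 10 counts, and 0.509 in each fit without 1 library. Genes without a row were 35.6% (4231) at 1 CPM or more, 19.8% (545) at 50 CPM or more, 24.5% when also matched by symbol, 23.0% among protein-coding genes and 19.8% (691) with no m6A-RIP gene within 10 kb. Without 1 library, 4680 to 4922 genes were higher and 2186 to 2417 lower. With a replicate block 4932 were higher and 2433 lower, and the replicate differences of input and m6A-RIP had r = -0.01 over 7452 genes, so the numbers were not shown to pair the libraries. Depth limits the low end, where 553 tested genes had a mean input count under 10.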
